A study of Lepidium sativum with 30 samples.

Results

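In the garden cress (Lepidium sativum) seed transcriptome, 4 contigs carry the names of 2 UDP-glucosyltransferases (UGTs), and their read counts were followed from the dry seed through imbibition with and without the phytotoxin Myrigalone A (MyA). TC_66416 (UGT73B5a), TC_17628 (UGT73B5b) and TC_48316 (UGT73B5c) are all matched to the same Arabidopsis gene, AT2G15480, and TC_22750 to AT1G05675 (UGT74E1). These 4 of 48306 contigs were chosen by name, and each name comes from a list of contigs more abundant with MyA at 12 h; UGT73B5a is also on the 6 h list. The MyA against control values that chose them are therefore given below as a description without a test, while the time courses were tested. Every time comparison other than 6 h control against dry seed shares 12 h libraries with the contrast that chose the contigs. Low values in the 12 h control and high values at MyA 12 h are partly favoured by that choice.

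RNA came from whole FR14 seeds, with 5 libraries in each of 6 groups: dry seed, control seed imbibed for 6 h or 12 h in medium with the solvent only, and seed imbibed for 6 h, 12 h or 18 h with 0.5 mM MyA. The libraries of a group are described as biological replicates, but no label says whether each had its own seed batch, so a p-value here covers only library-to-library spread, which may be technical. MyA at 18 h was set against control at 12 h, both being at the onset of endosperm rupture, so in that pair MyA and imbibition time cannot be told apart. Library totals ran from 20218374 to 33609057 counts. One library, the fifth at MyA 18 h, stood apart, with 35.0% of its counts in 2254 contigs at least 4-fold higher there than in the mean of the other 4 MyA 18 h libraries, against 4.50% to 14.4% in the 29 other libraries. It was left out, so MyA 18 h has 4 libraries. None of the 4 UGT contigs is among those 2254. Levels of 3 seed markers in CPM (reads relative to library size) were checked in dry seed, 6 h control and 12 h control. The LEA18 contig fell throughout, from 137.2 to 15.9 and 5.64 CPM. The LDAP3 contig was highest at 6 h, at 1.34, 7.56 and 1.09 CPM. So was the LEA2 contig, at only 0.264, 0.548 and 0.150 CPM. At MyA 12 h the means of LEA18, LDAP3 and LEA2 were 16.5, 2.33 and 0.392 CPM, each above its 12 h control mean. The libraries of the MyA 12 h and 12 h control groups overlapped for LEA18 and LDAP3, and LEA2 held only 7 to 15 reads a library at MyA 12 h. Any link between these levels and those of the UGT contigs was not tested.

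UGTs move a sugar from a UDP-activated donor onto small acceptor molecules, including flavonols, plant hormones and foreign compounds. The sugar makes the acceptor more soluble and lets transporters carry it into the vacuole, and this conjugation is the step of plant xenobiotic detoxification that glutathione S-transferases (GSTs) share. In Arabidopsis, UGT73B5 is a stress-responsive enzyme of the UGT73B group that is linked to redox state during pathogen responses, and UGT74E1 is the close relative of UGT74E2, which glucosylates the auxin indole-3-butyric acid.

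Levels are in CPM, the reads of a contig relative to its library total, with totals scaled by trimmed mean of M-values (TMM) factors. The contigs' lengths were not used here, so levels are compared between groups and not ranked between contigs. Ratios and shares of reads between the UGT73B5 contigs also depend on contig length, and what is read from them is how they differ between groups. Because 3 contigs match 1 Arabidopsis gene, reads from near-identical copies may be split between them in a way these counts cannot resolve. In RNA from whole seeds, fewer cells of a type and less RNA per cell cannot be told apart.

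UGT73B5a was close to its detection limit in the dry seed and was highest with MyA. The 5 dry-seed libraries held 0.134, 0.443, 0.334, 0.124 and 0.0437 CPM, which is 1 to 8 reads a library and 19 reads in all. The 6 h controls held 5.44, 6.06, 4.07, 10.1 and 6.72 CPM, and the 12 h controls 2.21, 1.62, 2.53, 2.54 and 0.946 CPM. Every 6 h control thus lay above every dry seed and every 12 h control. With MyA the 5 libraries stood at 33.0, 41.2, 29.4, 34.9 and 30.8 CPM at 6 h and at 31.6, 20.6, 24.5, 29.5 and 37.9 CPM at 12 h. The 4 libraries at 18 h stood at 56.5, 35.2, 46.2 and 58.6 CPM. All 14 MyA libraries lay above all 10 controls, and the 6 h and 12 h MyA libraries overlapped each other. Of all contigs tested, 0.406% had every MyA library above every control at 6 h and 0.483% at 12 h, a contrast by which this contig was chosen.

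UGT73B5b also peaked at 6 h in the control, and unlike in UGT73B5a this was its highest mean level of all groups. Its dry-seed libraries held 1.120, 1.495, 0.6015, 1.305 and 1.223 CPM. The 6 h controls rose to 41.64, 19.56, 22.73, 18.48 and 26.18 CPM, and the 12 h controls were back at 3.01, 3.61, 2.35, 2.69 and 2.38 CPM. Neither dry seed nor 12 h control reached any 6 h control. At 6 h the MyA libraries held 16.5, 24.5, 24.7, 20.8 and 29.9 CPM, inside and just below the range of the 6 h control. At 12 h they spread over 22.04, 9.637, 23.82, 8.144 and 54.37 CPM, and at 18 h over 12.99, 11.22, 18.19 and 56.35 CPM. Library 5 at 12 h and library 4 at 18 h were the high ones, and the highest library was 6.68 times the lowest at 12 h and 5.02 times at 18 h, against 1.54 times in the 12 h control. The control 6 h mean (25.7 ± 9.39 CPM, SD, n = 5) and the 3 MyA means (23.3 ± 4.99, 23.6 ± 18.6 and 24.7 ± 21.3 CPM) did not separate.

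UGT73B5c shared the 6 h peak of the control. Its dry-seed libraries held 3.14, 3.93, 1.94, 2.92 and 4.11 CPM, the 6 h controls 14.65, 13.50, 13.40, 12.05 and 17.77 CPM, and the 12 h controls 1.194, 1.528, 0.7721, 1.162 and 1.098 CPM. It was the only one of the 4 contigs whose 12 h controls all lay below the dry seed. That separation depends on the TMM factors: with library totals alone, dry-seed library 3 held 1.43 CPM and 12 h control library 2 held 1.78 CPM. With MyA it held 11.6, 14.0, 15.5, 13.8 and 14.5 CPM at 6 h, 8.766, 3.474, 11.73, 6.183 and 9.005 CPM at 12 h and 1.87, 1.86, 6.31 and 9.37 CPM at 18 h. The 6 h MyA libraries overlapped the 6 h control, and at 18 h the lower pair of libraries sat just above the highest 12 h control.

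UGT74E1 peaked in the 6 h control. The dry seeds held 5.51, 4.65, 3.34, 3.73 and 3.71 CPM, the 6 h controls 61.2, 50.5, 58.7, 49.6 and 47.7 CPM and the 12 h controls 6.894, 9.431, 6.949, 7.664 and 6.497 CPM. With MyA it held 50.7, 32.3, 32.2, 33.3 and 32.2 CPM at 6 h, where only library 1 reached the range of the control. It held 17.75, 9.211, 12.16, 14.63 and 26.79 CPM at 12 h and 17.7, 11.2, 29.4 and 23.2 CPM at 18 h. Library 2 at MyA 12 h lay within the range of the 12 h control and the other 4 lay above it.

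**Figure D1:**
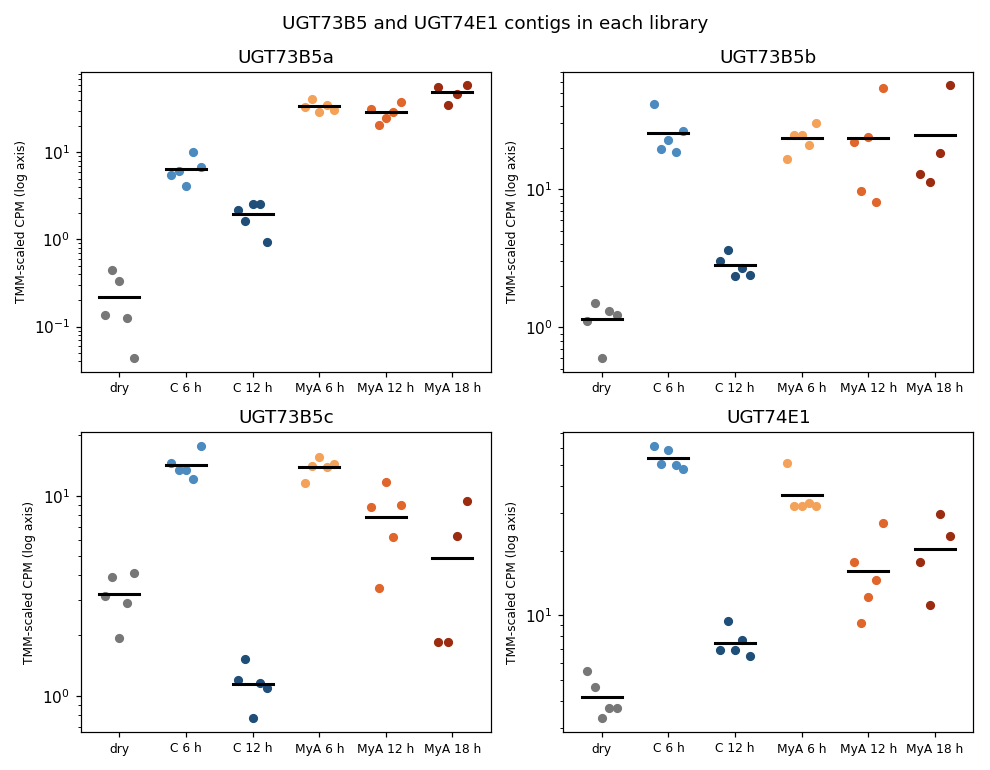
Level of each UGT contig in the 29 libraries used, in TMM-scaled CPM on a log axis, by group (C, control); points are libraries in label order and bars are group means. UGT73B5a is higher in all 14 MyA libraries than in all 10 controls, while the other 3 contigs stand at similar or lower levels with MyA at 6 h than in the 6 h control and fall to single-digit mean CPM in the 12 h control.

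The first tested question was how the 4 contigs moved when the dry seed took up water without MyA. All 4 rose between the dry seed and the 6 h control, where 26.5% of the 22155 contigs tested were called higher and 23.4% lower, and the groups of no UGT contig overlapped, as in the 37.9% of contigs whose 6 h libraries all lay above the dry seed. All 4 passed the filter on low counts in the 6 h control alone. UGT73B5a rose by 4.87 on the log2 scale (SE 0.44, n = 5 and 5, adjusted p = 1.345e-06 in edgeR's quasi-likelihood test), and its reads pooled over libraries were 32.4 times those of the dry seed, with a counting interval of 20.6 to 54.1 (95%, counting error only). UGT73B5b rose by 4.40 (SE 0.29, adjusted p = 1.264e-07 in edgeR) and UGT74E1 by 3.60 (SE 0.15, adjusted p = 7.039e-09 in edgeR). UGT73B5c rose by 2.08 (SE 0.19, adjusted p = 1.462e-06 in edgeR). The scaling matters to the background here: 53.0% of all called contigs were higher with TMM, 71.1% with library totals alone and 74.7% when scaled to the reference contigs PP2AA2, CAC and Hobbit. The median of all contigs moved from 0.04 to 0.56 and 0.69 on the log2 scale, and the UGT contigs stayed above it with all 3 scalings.

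All 4 then fell between 6 h and 12 h in the control, where 14.6% of the contigs tested fell. The 12 h controls belong to the contrast that chose the contigs, so a fall to 12 h is partly favoured by that choice. UGT73B5c fell most, by 3.52 on the log2 scale (SE 0.20, adjusted p = 1.204e-07 in edgeR), from a mean of 14.3 to 1.15 CPM. UGT73B5b fell by 3.07 (SE 0.23, adjusted p = 6.585e-07 in edgeR) and UGT74E1 by 2.72 (SE 0.12, adjusted p = 4.43e-08 in edgeR). UGT73B5a fell by 1.61 (SE 0.32, adjusted p = 0.000737 in edgeR), which is 3.29-fold. In all 4 the 5 libraries at 12 h lay below the 5 at 6 h, as they did in 30% of contigs tested. Scaled to the reference contigs, 31.8% of called contigs were higher against 46.8% with TMM, the median of all contigs moved from 0.08 to −0.14, and all 4 UGT contigs were still called lower.

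In MyA, UGT74E1 and UGT73B5c were lower at 12 h than at 6 h, and the difference between this time course and that of the control was not tested. UGT74E1 was the only contig of the 4 called in this comparison, and fell by 1.07 on the log2 scale (SE 0.25, adjusted p = 0.00213 in edgeR) where 14.7% of contigs fell. Its call sits at the 2-fold threshold: without MyA 12 h library 2 the change was −0.93, and without MyA 6 h library 1, the high library named above, it was −0.97. UGT73B5c was lower by −0.73 (SE 0.26, 95% interval −1.25 to −0.22, adjusted p = 0.026 in edgeR), under the 2-fold threshold. Of its 5 libraries at 12 h, 4 lay below every 6 h library. Without MyA 6 h library 3 its adjusted p was 0.0567 in edgeR. UGT73B5a differed by −0.14 (interval −0.43 to 0.16, adjusted p = 0.421 in edgeR) and UGT73B5b by 0.10 (interval −0.74 to 0.94, adjusted p = 0.848 in edgeR). The interval of UGT73B5a leaves out a 2-fold change, and that of UGT73B5b is wide because of the spread between its 12 h libraries: without library 5 its change was −0.49. Of all contigs called here, 56.6% were higher with TMM and 44.4% when scaled to the reference contigs.

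Between MyA 12 h and 18 h, 1.97% of contigs were called higher and 0.357% lower, and 0 of the 4 UGT contigs were called by edgeR or DESeq2, with 1 at an unadjusted p below 0.05 in edgeR. UGT73B5a was the only one with an adjusted p below 0.05, at 0.76 on the log2 scale (SE 0.19, adjusted p = 0.0309 in edgeR), under 2-fold. Leaving out single libraries took that p as high as 0.103. UGT74E1 differed by 0.33 (interval −0.29 to 0.96, adjusted p = 0.503 in edgeR), UGT73B5c by −0.71 (interval −1.72 to 0.31, adjusted p = 0.370 in edgeR) and UGT73B5b by 0.07 (interval −1.15 to 1.28, adjusted p = 0.952 in edgeR). The UGT73B5b value became −0.73 without library 4 at MyA 18 h. With the left-out library 5 in the fit the 4 values were 0.76, −0.20, −0.74 and 0.25 for UGT73B5a, b, c and UGT74E1, and again none was called. The time comparisons that use 12 h libraries share those libraries with the contrast that chose the contigs.

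**Figure D2:**
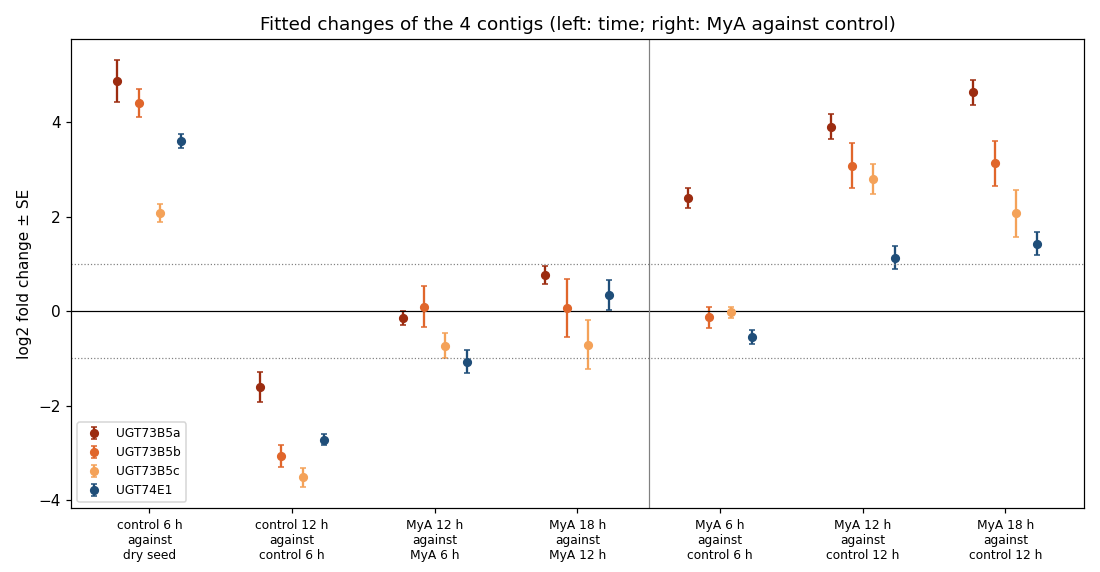
Fitted log2 fold change of each contig, with its SE, in the 4 tested time comparisons (left of the vertical line) and the 3 MyA against control comparisons (right, described only); dotted lines mark 2-fold. UGT73B5a is the contig that stands 2.40 higher with MyA at 6 h, where UGT73B5b, UGT73B5c and UGT74E1 are at or below 0.

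The timing against the control separated UGT73B5a from the rest, and these values are given as a description. At 6 h UGT73B5a stood 5.22-fold higher with MyA in mean CPM (2.40 on the log2 scale, SE 0.21). It is 1 of 3 contigs of the 22155, or 0.0135%, that pass the thresholds as higher at that time. UGT73B5b stood at −0.14 (SE 0.23) and UGT73B5c at −0.03 (SE 0.12), and in both the MyA and control libraries overlapped. UGT74E1 stood at −0.55 (SE 0.15), with 4 of its 5 MyA libraries below all controls.

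At 12 h all 4 stood higher with MyA, as the rule requires, where 8.58% of contigs were called higher. The log2 values were 3.90 (SE 0.27) for UGT73B5a, 3.08 (SE 0.47) for UGT73B5b, 2.79 (SE 0.32) for UGT73B5c and 1.13 (SE 0.24) for UGT74E1. The groups did not overlap in the first 3 of these, as in 0.483% of all contigs tested, and the rule used this contrast. In mean CPM these are 14.6-fold, 8.40-fold, 6.80-fold and 2.15-fold. UGT74E1 is the member nearest the 2-fold limit, at 0.91 without MyA 12 h library 5. The 12 h background rested on single libraries: 1902 contigs were called higher, but 16 without control 12 h library 2 and 16 without library 5. It was 27 without the contigs enriched in the left-out library, and the 4 UGT values were then 3.94, 3.11, 2.83 and 1.16.

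At 18 h against the 12 h control, where 2.43% of contigs were called higher, UGT73B5a stood at 4.63 (SE 0.27), UGT73B5b at 3.13 (SE 0.47), UGT73B5c at 2.07 (SE 0.49) and UGT74E1 at 1.43 (SE 0.24). Without MyA 18 h library 4 the UGT73B5b value was 2.30. Setting the times side by side, the value of UGT73B5a was 2.40, 3.90 and 4.63, while those of UGT73B5b (−0.14, 3.08 and 3.13) and UGT73B5c (−0.03, 2.79 and 2.07) were near 0 at 6 h. From 6 h to 12 h the MyA mean of UGT73B5a did not rise (33.8 and 28.8 CPM), while its control mean fell from 6.485 to 1.97 CPM. For UGT73B5b and UGT73B5c the MyA means at 12 h (23.6 and 7.83 CPM) were no higher than their 6 h control means (25.7 and 14.3 CPM), although MyA 12 h library 5 of UGT73B5b, at 54.4 CPM, lay above every 6 h control. The 12 h and 18 h comparisons share their control libraries. The 18 h background of 539 contigs called higher became 1971 without MyA 18 h library 4 and 1088 without control 12 h library 4, and its share of all called contigs, 71.7%, was 61.6% with library totals and 83.3% with the reference contigs.

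Changes in the ratio of counts between the 3 UGT73B5 contigs within a library need no lengths, and the ratio cancels both depth and scaling. Log2 ratios were tested over time with exact two-sided permutation tests over libraries, 12 in all, with p-values adjusted over the 12. The smallest p these tests allow is 0.00794.

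Relative to UGT73B5c, both other contigs rose on imbibition. The log2 ratio of UGT73B5a to UGT73B5c went from −4.01 ± 1.36 (SD, n = 5) in the dry seed to −1.19 ± 0.56 in the 6 h control, and that of UGT73B5b to UGT73B5c from −1.47 ± 0.23 to 0.80 ± 0.41. Neither pair of groups overlapped, and both differences had adjusted p = 0.0238 (exact permutation test). The ratio of UGT73B5a to UGT73B5b differed by 0.56 (adjusted p = 0.476, exact permutation test). Both ratios with UGT73B5a rest on 1 to 8 dry-seed reads a library, and with 5 in place of 0.5 added to the counts the rise against UGT73B5c was 1.73 instead of 2.82, still with adjusted p = 0.0238 (exact permutation test).

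From 6 h to 12 h in the control the ratio of UGT73B5a to UGT73B5c rose again, by 1.90 to 0.71 ± 0.78 (adjusted p = 0.0238, exact permutation test). The ratio of UGT73B5a to UGT73B5b was 1.41 higher (adjusted p = 0.0571, exact permutation test), and that of UGT73B5b to UGT73B5c 0.49 higher (adjusted p = 0.0794, exact permutation test). UGT73B5a therefore fell less than UGT73B5c in the control, and the test did not separate it from UGT73B5b.

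With MyA none of the 3 ratios passed between 6 h and 12 h (adjusted p = 0.937, 0.0816 and 0.138, exact permutation tests). From 12 h to 18 h the ratio of UGT73B5a to UGT73B5c rose from 1.96 ± 0.56 to 3.66 ± 1.09 (n = 4 at 18 h, adjusted p = 0.0238, exact permutation test), with no overlap. Without any single library its adjusted p was at most 0.0686 and no longer passed, because the smallest p allowed becomes 0.0179 or 0.0286.

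Against the control at 6 h, as a description, the ratios of UGT73B5a to UGT73B5b and to UGT73B5c were 2.54 and 2.47 higher with MyA, without overlap. The ratio of UGT73B5b to UGT73B5c differed by −0.07, with overlap. At 12 h the same 3 differences were 1.17, 1.25 and 0.07, and all 3 pairs of groups overlapped.

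**Figure D3:**
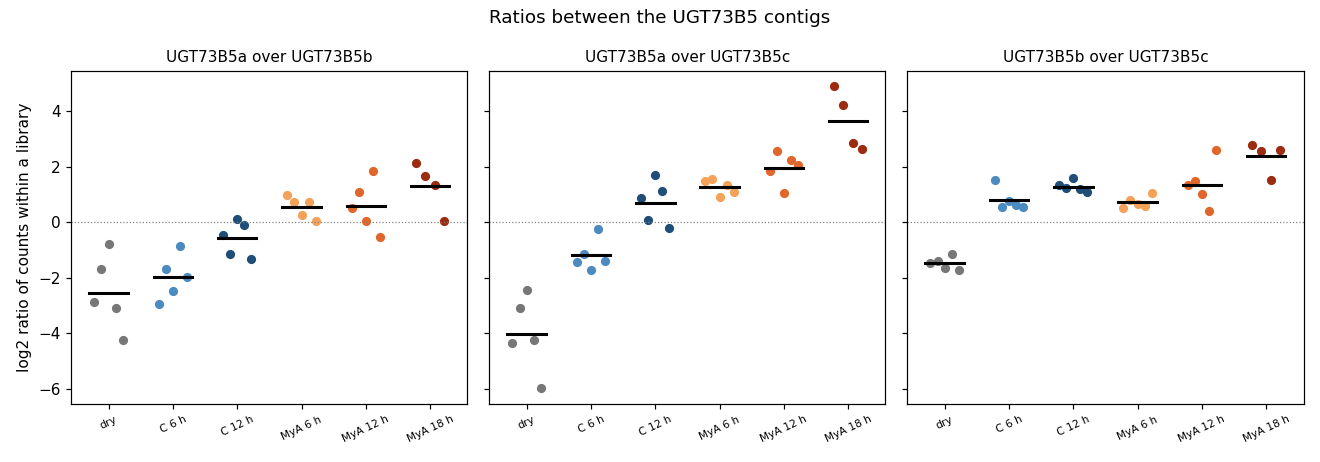
Log2 ratio of the counts of UGT73B5 contigs within each library (0.5 added to each count), by group; points are libraries and bars are group means. The 2 ratios with UGT73B5a over another contig stand higher in MyA 6 h than in control 6 h in every library, while UGT73B5b over UGT73B5c overlaps between them.

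The make-up of the UGT73B5 reads shifted accordingly. UGT73B5c gave 69.9 ± 4.09% of them in the dry seed (SD, n = 5), 31.3 ± 4.71% in the 6 h control and 19.6 ± 4.32% in the 12 h control. UGT73B5a gave 5.18 ± 4.36%, 14.5 ± 6.38% and 32.9 ± 10.1% in the same groups. With MyA the share of UGT73B5a was 47.8 ± 5.83% at 6 h, 51.4 ± 12.8% at 12 h and 66.1 ± 13.9% at 18 h, and that of UGT73B5c was down to 5.74 ± 2.98% at 18 h. UGT73B5b had its largest mean share, 54.2 ± 8.40%, in the 6 h control. These are shares of reads, which also depend on the length of each contig.

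Summed over the 3 contigs, UGT73B5 reads came to 4.57 ± 1.15 CPM in the dry seed, 46.5 ± 9.71 in the 6 h control and 5.93 ± 0.933 in the 12 h control. With MyA the sums were 71.0 ± 7.01, 60.2 ± 25.8 and 78.7 ± 32.3 CPM at 6 h, 12 h and 18 h. The mean sum with MyA was 1.53 times the control at 6 h and 10.2 times at 12 h, and at 6 h that excess was in UGT73B5a.

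Libraries of a group did not vary alike in the 4 contigs. After the group means were taken out, UGT73B5b and UGT73B5c went up and down together over the 29 libraries (r = 0.753, a description over libraries that share groups and scaling), and UGT74E1 went with each of them at r = 0.555. UGT73B5a did so with none of them, at r = 0.113 with UGT73B5b, 0.0237 with UGT73B5c and 0.229 with UGT74E1. At MyA 18 h libraries 3 and 4 were the higher pair for UGT73B5b, UGT73B5c and UGT74E1, whereas UGT73B5a was highest in libraries 1 and 4. The share of counts in contigs enriched in the left-out library was 7.26%, 8.29%, 5.92% and 4.96% in MyA 18 h libraries 1 to 4. It was 8.15%, 9.13%, 11.4%, 11.8% and 7.06% in MyA 12 h libraries 1 to 5. At 18 h the 2 libraries with less of it were the ones high for UGT73B5b and UGT73B5c. At 12 h that did not hold for UGT73B5c, which was highest in library 3 (11.73 CPM) and lowest in library 2 (3.474 CPM). The part of this share in the spread was not tested.

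Among the 154 other named contigs that pass the filter, the profiles most like each contig over the 29 libraries also differed. UGT73B5a was most like the short-chain dehydrogenase contig SDR2 (r = 0.938 on log2 CPM) and the GST contigs GSTU8 (r = 0.928) and GSTU25 (TC_23016, r = 0.915). GSTU8 held 1.94 CPM in the 6 h control and 3.29, 11.1 and 21.5 CPM with MyA at 6 h, 12 h and 18 h. In the 6 h control and at MyA 6 h SDR2 held 48.2 and 59.8 CPM and GSTU25 1.02 and 1.46 CPM. Each of these contigs thus differed less at 6 h than UGT73B5a did, at 5.22-fold. GSTU25 was also near the floor, at 0 to 1.46 CPM in dry seed, both controls and MyA 6 h. UGT73B5b was most like ERF020, an ethylene response factor family member (r = 0.963), SAT1, a serine acetyltransferase of cysteine synthesis (r = 0.955), and OPR1, an oxophytodienoate reductase (TC_2709, r = 0.952). UGT73B5c was most like the transcription factors NAC102 (r = 0.915) and ZAT12 (r = 0.897) and the glutamate dehydrogenase GDH2 (r = 0.894). UGT74E1 was most like the oxidative-signal kinase OXI1 (r = 0.951), the glucosyltransferase UGT75B1 (r = 0.948) and the NAC factor NAC081 (r = 0.916). In the control all of these most-alike contigs had a 6 h mean above both the dry seed and 12 h means. They were picked for likeness, over these same libraries, to UGT contigs with that peak, so the peak is partly given by the choice. In dry seed, 6 h and 12 h ERF020 held 0.432, 15.6 and 1.29 CPM and OXI1 0.813, 57.7 and 2.83 CPM. ZAT12 held 34.1, 290 and 23.1 CPM and SDR2 14.3, 48.2 and 22.7 CPM.

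The time courses of the 4 other named UGT contigs differed. UGT75B1, which in Arabidopsis glucosylates several small acids and is found at the forming cell plate, held 3.55 CPM in the dry seed, 98.6 in the 6 h control and 9.56 in the 12 h control. It rose by 4.72 and then fell by 3.26 on the log2 scale (adjusted p = 1.559e-08 and 5.166e-06 in edgeR). UGT74E2, the indole-3-butyric acid glucosyltransferase, rose by 4.02 and fell by 4.17 (adjusted p = 3.91e-07 and 6.634e-06 in edgeR). These are the same directions as all 4 UGT73B5 and UGT74E1 contigs. Unlike UGT73B5a and UGT73B5b, both also fell between MyA 6 h and 12 h, UGT75B1 by 1.86 (adjusted p = 0.000276 in edgeR) and UGT74E2 by 1.60 (adjusted p = 0.00905 in edgeR).

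UGT73B2, a flavonol glucosyltransferase and the member of the UGT73B group nearest in name, did not peak at 6 h. Its means were 10.73, 18.41 and 34.10 CPM in dry seed, 6 h and 12 h control and 26.0, 41.5 and 60.6 CPM with MyA at 6 h, 12 h and 18 h. It changed by 1.00 on the log2 scale from 6 h to 12 h in the control (adjusted p = 1.502e-05 in edgeR, just under 2-fold), where UGT73B5a, b and c all fell. UGT75D1 had means of 5.06, 15.2 and 21.2 CPM in dry seed, 6 h and 12 h control and 19.2, 34.5 and 59.7 CPM with MyA. As a description, none of these 4 was past the thresholds against the control at 6 h or 12 h, and UGT75D1 alone was at 18 h (1.47, SE 0.12). At 12 h UGT74E2 stood at 2.22 (SE 0.63) and UGT75B1 at 1.35 (SE 0.41). Both were above the 1.13 of UGT74E1 but missed the adjusted p threshold. UGT75D1 stood at 0.73 and UGT73B2 at 0.31. All 5 MyA libraries of UGT73B2 lay above all controls at 6 h and at 12 h, as in 0.406% and 0.483% of contigs tested.

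**Figure D4:**
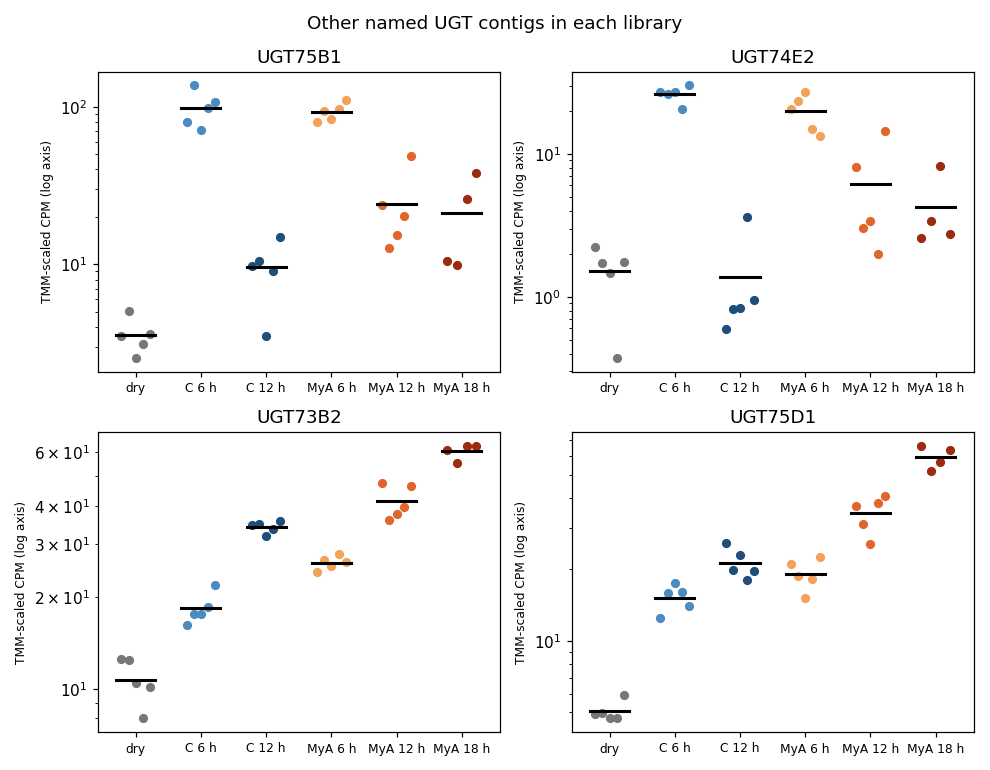
Level of the 4 other named UGT contigs in the 29 libraries used, in TMM-scaled CPM on a log axis, by group (C, control); points are libraries and bars are group means. UGT75B1 and UGT74E2 peak at 6 h and are low in the 12 h control, while UGT73B2 and UGT75D1 are higher at 12 h than at 6 h in every library of both treatments.

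Contigs named from other steps of the detoxification route were counted in the same comparisons. Their lists were drawn up from these very libraries and give no independent evidence of a direction. Over all contigs tested, 26.5% rose and 23.4% fell on imbibition, and 12.8% rose and 14.6% fell from 6 h to 12 h in the control. Of 13 GST and glutathione contigs, 7 passed the filter; 3 rose from dry seed to 6 h, and from 6 h to 12 h in the control 3 rose and 2 fell. Of 7 cytochrome P450 contigs, 5 passed; 2 rose and 1 fell on imbibition, and then 1 rose and 3 fell. Of 12 ABC and MATE transporter contigs, 10 passed; 6 rose and 1 fell on imbibition, and then 3 rose and 6 fell. The median log2 change from 6 h to 12 h in the control was −2.90 for the 4 UGT contigs described here, −0.17 for the GST, −1.77 for the P450 and −1.32 for the transporter contigs, against 0.08 over all contigs tested. The 12 h control libraries are part of the contrast that chose the 4 UGT contigs. With MyA, 5 of the 7 GST contigs rose between 6 h and 12 h, where 19.1% of contigs tested rose. Between 12 h and 18 h 2 of 7 rose. No UGT73B5 contig was called at these times. The filter takes 5 CPM in any 4 libraries, so a contig high only late with MyA passes through its rise. GSTU8 and GSTU25 had means of at most 3.29 and 1.46 CPM in dry seed, both controls and MyA 6 h. Rises with MyA are thus partly given by the filter, and the listed contigs were not tested against the background or the UGT73B5 contigs. Of the 10 transporters 4 and then 3 rose with MyA, and of the 5 P450 contigs 1 and then 2 fell, where 1.97% of contigs tested rose and 0.357% fell between 12 h and 18 h and 14.7% fell between 6 h and 12 h.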

How the data were processed

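Whole-seed poly(A) RNA of Lepidium sativum was sequenced from 30 libraries. The authors mapped the reads with BWA to their own de novo assembly and counted them per contig with HTSeq (versions and strand setting not given in the sources used here), and deposited whole-number counts, not normalized. Contigs reaching 5 CPM in at least 4 of 29 libraries (22155) were tested with edgeR 4.0.16 in R 4.3.3 (TMM factors, glmQLFit and glmQLFTest, each fit on the libraries of its 2 groups), adjusted by Benjamini-Hochberg over all of them and called at adjusted p below 0.05 and over 2-fold. Intervals are 1.96 SE either side. The fifth MyA 18 h library was left out, as in the study. Within-library ratios used counts plus 0.5. Likeness is Pearson's r of log2 CPM (prior count 2) over 29 libraries, and the 3 nearest of 154 contigs named in the study's lists are given. Other contigs are those whose contig ID the study's supplementary tables pair with a name of each family. The steps were tested on simulated data. Members and lists were chosen with earlier results of these data known. No replicate pair was identical. Alternatives were DESeq2 1.42.0, other scalings and filters, 1 fit over all groups, a replicate block and left-out libraries. No columns of the table went unused, and contig sequences and lengths were not used here.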

Additional observations from a re-analysis of the deposited data

Results flagged for a closer look

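Single libraries stood far from the rest of their group in 4 of the 42 groups of values checked, by a test that chance passes in about 1 group in 20. UGT73B5b held 56.4 CPM in MyA 18 h library 4, against 11.2 to 18.19 CPM in the other 3. UGT74E1 held 50.7 CPM in MyA 6 h library 1, against 32.2 to 33.3 CPM in the other 4. The log2 ratio of UGT73B5b to UGT73B5c was 1.51 in control 6 h library 1, against 0.53 to 0.76 in the other 4. The same ratio was 1.53 in MyA 18 h library 3, against 2.58 to 2.79 in the other 3.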

How the results depend on the processing

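The 4 UGT contigs were called in the same direction in both control time comparisons under every alternative and left-out library, and 1 and 0 contigs were called in the MyA time comparisons under every alternative other than left-out libraries. Replicate numbers were not used to pair the samples, since in no comparison did every same-numbered pair correlate above 0.1. In MyA against control 4 of 5 pairs did so, both at 6 h and at 12 h, so some pairing may be present. With a replicate block UGT73B5b changed from 0.10 to −0.178 between MyA 6 h and 12 h, and the count of changed contig ratios was 0 in each time comparison, since the smallest p a sign flip allows is 0.0625. Most directions that turned were those of values near 0. UGT73B5b turned between MyA 6 h and 12 h (−0.139 scaled to reference contigs, −0.495 to 0.293 without single libraries). It also turned between MyA 12 h and 18 h (−0.203 with the fifth library, −0.725 to 0.586). With MyA at 6 h UGT73B5b (−0.239 to 0.112) and UGT73B5c (−0.0934 to 0.0575, and 0.0481 scaled to reference contigs) turned. So did the ratio of UGT73B5a to UGT73B5b between MyA 6 h and 12 h (−0.273 to 0.32). On imbibition that ratio was not near 0, at 0.56, and turned to −0.349 with 5 added to counts. Without single libraries 0 to 1 contigs were called between MyA 6 h and 12 h, UGT73B5b at MyA 18 h against control 12 h ran from 2.3 to 3.37, and changed ratios numbered 1 to 2 in the control from 6 h to 12 h, 0 to 1 with MyA from 6 h to 12 h and 0 to 0 from 12 h to 18 h. Counts over all contigs grew with lighter filters: with a minimum of 5 counts the number higher went from 5869 to 11569 on imbibition, 2845 to 5127 in the control from 6 h to 12 h, 4242 to 9149 and 436 to 768 in the MyA time comparisons, and 1902 to 4281 and 539 to 1227 with MyA at 12 h and 18 h. DESeq2 called 8 higher with MyA at 6 h against 3. The replicate block took those lower from 79 to 38 between MyA 12 h and 18 h and from 213 to 90 at MyA 18 h against control 12 h. The few reads of UGT73B5a in dry seed and the spread of UGT73B5b at MyA 12 h and 18 h limit the precision of their changes.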
